A study of Mus musculus with 36 samples.

Results

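The comparison described here is that of EPS 3h with Rest in Tug1 KD myotubes. Its members are the 12 libraries, of 36 in the series, whose titles name both the Tug1 knockdown and one of these conditions, 6 for EPS 3h and 6 for Rest. All 12 came from C2C12, a mouse myoblast line that fuses into multinucleated myotubes, so that the replicates are wells of 1 cell line and not animals. Every well received an antisense LNA (a chemically locked oligonucleotide) against the lncRNA Tug1 on day 3 of differentiation, and the experiment followed on day 4. EPS 3h myotubes contracted for 3 h under electrical pulse stimulation, an in vitro stand-in for exercise with pulses of 2 ms at 66 Hz and 13 V given in trains of 5 s separated by 5 s, and then recovered for 3 h before lysis. Rest myotubes sat for the time of the stimulation with electrodes in the medium and no current. There was 1 Rest group and none of its own for the recovery, so EPS and the longer time in culture cannot be told apart. Per the study's methods the 6 wells of a group came from 2 independent experiments with 3 wells each, so the p-values measure the spread between wells, which is partly technical. The labels do not say which replicate numbers share an experiment.

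Contraction of myotubes floods the cytosol with calcium, consumes ATP, produces heat and reactive oxygen and strains the filaments. Muscle cells are known to answer with immediate early transcription factors such as the AP-1, EGR and NR4A families, with chaperones under heat shock factor 1, and later with secreted factors, termed myokines, and with changes in metabolic and mitochondrial genes. Tug1 is a nuclear and cytoplasmic lncRNA, and this comparison asks what the response to EPS looks like 3 h into recovery where Tug1 has been lowered.

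Expression is given throughout in RPM, the counts of a gene scaled by its library's total on genes after TMM normalisation, and a value is compared only within a gene, since RPM does not account for length. Where ranges or sets of 3 values are given for each group they run from the lowest library to the highest or give the lowest, the median and the highest, Rest first. The 12 libraries held 17734154 to 21608733 counts on genes (17005079 to 24181167 over all 36). Between 21248 and 23604 genes had at least 1 count in a Rest library and between 25888 and 27163 in an EPS 3h library. In a principal component analysis of the 12 libraries the first component carried 75.3% of the variance and separated Rest from EPS 3h, and the second carried 7.98% and lay lower in replicates 1 to 3 than in replicates 4 to 6 of each group. Results are therefore also given for each set of 3 replicates where that bears on them.

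Tug1 itself (chr11:3589785-3599673, minus strand, GRCm39, placed in the protein coding class by the gene types given with the deposited counts) was at 24, 33.3, 25.2, 30.2, 25.1 and 25.6 RPM in Rest replicates 1 to 6. In EPS 3h replicates 1 to 6 it was at 54, 84.6, 46.4, 67.9, 48.9 and 40 RPM. Every EPS 3h library of Tug1 KD myotubes thus held more Tug1 than any Rest library of Tug1 KD myotubes, and Tug1 rose by a log2FC of 1.06 (SE 0.171, FDR 2.69e-06), with 1.19 and 0.95 when replicates 1 to 3 and replicates 4 to 6 were fitted alone. Against control LNA the knockdown lowered Tug1 at Rest by a log2FC of -0.83 (FDR 0.000915) and at EPS 3h by -0.51 (FDR 0.0414). The 6 Rest Control libraries spanned 38.6 to 58.3 RPM, so that the EPS 3h Tug1 KD libraries overlapped the unstimulated control.

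The cells carried the markers of differentiated myotubes in both groups. The 10 myotube markers, among them embryonic myosin Myh3, skeletal actin Acta1 and creatine kinase Ckm, summed to 16338 to 21843 RPM at Rest and 14712 to 21226 RPM at EPS 3h, and 1 of the 10 fell at an FDR under 0.05 (Myog, log2FC -0.29). The summed markers of undifferentiated or reserve cells ran from 554.9 to 714.2 RPM at Rest and from 398.1 to 653.0 RPM at EPS 3h, with 4 of the 10 lower (Id1, Id3, Pax7 and Notch3) and 2 higher (Heyl and Ccnd1). Fibroblast markers were lower at EPS 3h (1531 to 2177 RPM against 2271 to 2848 RPM), and 3 of the 5 tested fell, with the platelet-derived growth factor receptor Pdgfra at a log2FC of -1.07. Markers of blood vessel endothelium were higher at EPS 3h, summing to 11.6 to 17.8 RPM against 2.42 to 4.13 RPM, and all 4 that were tested rose, with the VEGF receptor Kdr at a log2FC of 4.48, the adhesion molecule Pecam1 at 2.93 (mean 0.222 and 1.77 RPM), the angiopoietin receptor Tek at 2.20 and the von Willebrand factor Vwf at 1.37. At Rest Kdr, Pecam1 and Tek averaged less than 1 RPM, the level a gene had to reach in 12 of 36 libraries to be tested, so that their rise was set largely by that filter. The other 3 endothelial markers did not reach the level needed for testing, with means at Rest and EPS 3h of 0.281 and 0.549 RPM for Cdh5, 0.282 and 0.15 RPM for Cldn5, and 0 and 0.045 RPM for Emcn. The 7 osteoblast markers summed to 1029 to 1191 RPM at Rest and 1019 to 1315 RPM at EPS 3h, nearly all of it Spp1, and of the 4 tested Alpl (log2FC 2.59) and Runx2 (0.57) rose and Dmp1 fell (-1.30). The 7 macrophage markers summed to 6.12 to 9.17 RPM at Rest and 4.34 to 5.31 RPM at EPS 3h. Of the 2 tested, Cd14 fell (log2FC -1.79) and Cd68 did not pass the test (log2FC -0.39, FDR 0.0875). The 7 adipocyte markers, none of which was tested, summed to 0.153 to 0.775 RPM and 3.1 to 4.11 RPM. The part of these cell types in the results below was not tested. In bulk RNA a change in the number of cells of a type and a change in RNA per cell cannot be told apart.

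A large part of the transcriptome differed between EPS 3h and Rest in Tug1 KD myotubes, with more genes and larger steps upwards than downwards. Of 13995 genes tested, 1540 (11.0%) were higher and 629 (4.49%) lower at EPS 3h than at Rest by more than 2-fold at an FDR under 0.01, the rule behind the words "called higher" and "called lower" below. At an FDR under 0.05 regardless of size, 3668 genes (26.2%) were higher, 3625 (25.9%) lower and 6702 neither, and the counts of list members below are to be read against these shares. The 6 EPS 3h and 6 Rest libraries did not overlap for 4177 genes (29.8%), among them 1365 of those called higher and 557 of those called lower. The median log2FC was 1.92 over genes called higher and -1.28 over genes called lower. More than 8-fold rises were seen in 412 genes and more than 8-fold falls in 5. When counts were scaled by library size alone, the median log2FC of all genes moved by -0.164, and 1306 genes were called higher and 940 lower, so the share of calls that were rises was 58.1% instead of 71%. Changes below are relative to the TMM scale.

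**Figure D1:**
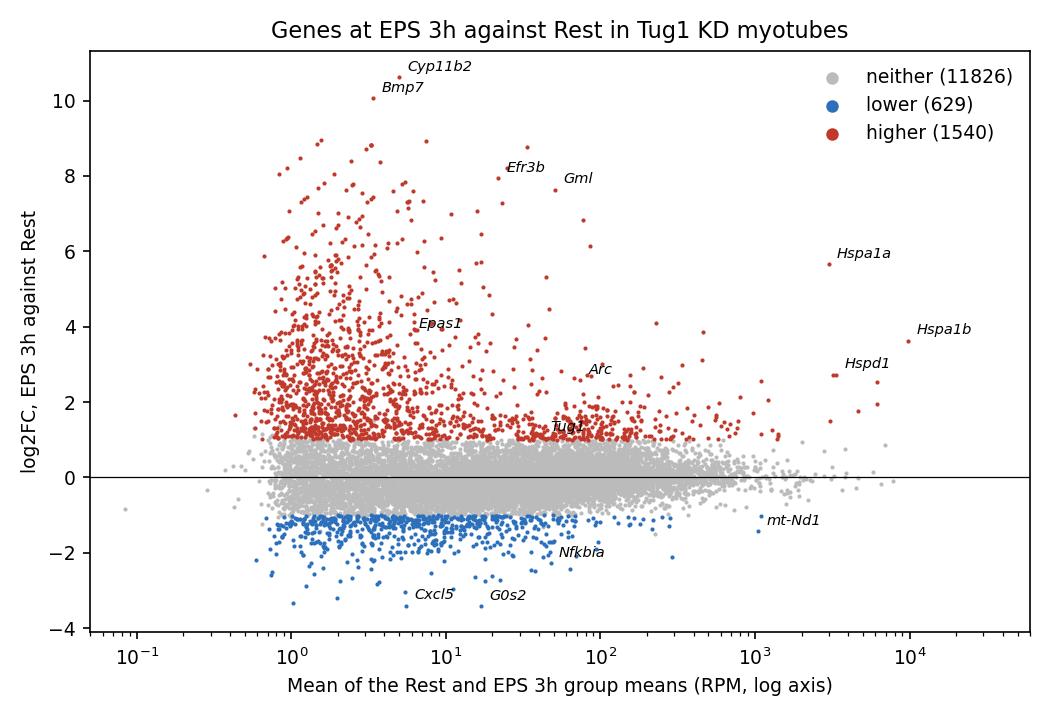
Each point is 1 of 13995 genes, with the mean of the Rest and EPS 3h group means of Tug1 KD myotubes on the horizontal log axis (RPM) and the log2FC of EPS 3h against Rest on the vertical axis. Red marks 1540 genes called higher, blue 629 called lower and grey the rest. The tallest rises belong to genes of few RPM, and the fitted height of a gene with no count at Rest depends on the prior count of the model. Hspa1a and Hspa1b stand apart at the upper right.

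The heat shock proteins and chaperones were the most uniformly raised group of the lists examined. All 32 listed genes were tested, 28 rose and 2 fell at an FDR under 0.05, 19 rose by more than 2-fold, and the median log2FC was 1.28 against -0.04 over all genes tested. The libraries of the groups did not overlap for 28 of the 32. The promoters of 5 of these genes are shown because they hold the letters of the heat shock element, the inverted repeat that heat shock factor 1 recognises. Each is the 250 bases before the start of the canonical transcript (GENCODE annotation, GRCm39), 5′ to 3′ on the strand of the gene, with matches to GAANNTTC or TTCNNGAA, 2 units of the element read on both strands, in capitals. Hspa1a (chr17:35191133-35191382, minus strand) and Hspa1b (chr17:35178215-35178464, minus strand), which encode nearly identical inducible HSP70 proteins, had their match at bases -104 to -97. Hspd1 (chr1:55127184-55127433, minus strand), for the mitochondrial chaperonin HSP60, had 3 overlapping matches between -52 and -35 in a stretch that it shares with Hspe1 on the other strand. Hsph1 (chr5:149559807-149560056, minus strand), for the HSP70 exchange factor HSP105, had its match at -28 to -21. Hspb1 (chr5:135916510-135916759, plus strand), for the small heat shock protein HSP27, had 2 matches between -104 and -77.
Hspa1a: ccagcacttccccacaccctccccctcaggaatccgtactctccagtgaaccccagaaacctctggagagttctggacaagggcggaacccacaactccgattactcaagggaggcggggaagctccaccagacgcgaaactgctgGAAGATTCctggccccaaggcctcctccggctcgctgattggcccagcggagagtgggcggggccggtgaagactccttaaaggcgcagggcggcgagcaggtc
Hspa1b: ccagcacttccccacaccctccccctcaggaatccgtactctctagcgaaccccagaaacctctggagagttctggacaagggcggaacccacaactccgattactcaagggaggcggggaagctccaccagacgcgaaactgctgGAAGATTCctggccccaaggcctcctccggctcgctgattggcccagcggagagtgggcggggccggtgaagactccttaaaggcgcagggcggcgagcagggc
Hspd1: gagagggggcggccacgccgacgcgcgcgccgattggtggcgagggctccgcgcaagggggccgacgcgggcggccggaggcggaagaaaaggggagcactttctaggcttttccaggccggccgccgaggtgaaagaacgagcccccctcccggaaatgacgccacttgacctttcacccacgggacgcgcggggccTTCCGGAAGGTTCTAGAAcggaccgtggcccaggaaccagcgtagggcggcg
Hsph1: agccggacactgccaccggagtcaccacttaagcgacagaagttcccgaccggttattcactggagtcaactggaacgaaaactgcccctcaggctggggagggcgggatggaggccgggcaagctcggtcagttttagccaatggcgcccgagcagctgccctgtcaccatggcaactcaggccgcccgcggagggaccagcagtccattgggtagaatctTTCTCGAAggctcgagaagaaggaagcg
Hspb1: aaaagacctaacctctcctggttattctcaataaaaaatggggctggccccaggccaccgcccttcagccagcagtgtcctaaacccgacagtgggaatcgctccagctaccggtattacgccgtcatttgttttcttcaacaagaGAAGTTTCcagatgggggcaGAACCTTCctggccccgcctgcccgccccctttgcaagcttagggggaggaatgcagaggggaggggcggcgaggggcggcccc

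Among the HSP70 genes, Hspa1b was at 1138, 1334 and 2010 RPM in the lowest, median and highest Rest library and at 15434, 17743 and 21112 RPM at EPS 3h (log2FC 3.63, SE 0.156, FDR 1.21e-19). Hspa1a went from 63.2, 97.2 and 190.4 RPM to 4784, 5920 and 6976 RPM (log2FC 5.66, SE 0.295, FDR 1.9e-17). For both, the lowest EPS 3h library stood far above the highest Rest library. Reads of the near-identical pair may have been divided between them in counting, which makes the split between the genes uncertain. The constitutive Hspa8 rose by less (2705 to 2988 RPM at Rest and 3930 to 5169 RPM at EPS 3h, log2FC 0.75), and Hspa2, known for its role in the testis, fell from 35.5 to 44.6 RPM to 20.4 to 26.8 RPM (log2FC -0.72, FDR 6.76e-09).

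The mitochondrial chaperonin pair rose together. Hspd1 had 755.8, 839.6 and 1041 RPM at Rest and 4931, 5356 and 7265 RPM at EPS 3h (log2FC 2.73, SE 0.12), and its cofactor Hspe1 271.9, 296.5 and 375.2 RPM against 1318, 1862 and 2879 RPM (log2FC 2.56, SE 0.238). Co-chaperones that hand clients to HSP70 rose as well. Dnajb1 had a log2FC of 2.71 (638.9 to 1086 RPM and 4073 to 7699 RPM), Dnaja4 of 3.11 (80.3 to 110.8 RPM, 588.5 to 1068 RPM) and Dnajb4 of 1.70. The exchange factors Hsph1, at 1482 to 2486 RPM and then 8385 to 13460 RPM, and Bag3, which couples HSP70 to autophagy of damaged filaments, had a log2FC of 2.53 and 2.06. The exception among the J proteins was Dnajb5, which fell from 94.6 to 127.1 RPM to 50.2 to 68.5 RPM (log2FC -0.90, FDR 5.18e-07).

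Of the HSP90 genes, the inducible Hsp90aa1 rose from 2088, 2554 and 2675 RPM to 6800, 9481 and 14713 RPM (log2FC 1.96), the constitutive Hsp90ab1 had a log2FC of 0.86, and its activator Ahsa1 had a log2FC of 1.60. Small heat shock proteins parted. Hspb1 rose from 1770 to 2332 RPM to 5593 to 8369 RPM (log2FC 1.77), and Cryab, the alpha B crystallin that sits on the Z-disc, by a log2FC of 1.09, whereas the heart and muscle form Hspb7 did not pass the test (84 to 107.0 RPM and 76.1 to 99.9 RPM, log2FC -0.09, FDR 0.416). Serpinh1, the collagen chaperone of the endoplasmic reticulum, had a log2FC of 1.50. The transcript of heat shock factor 1 itself, Hsf1, was at 81 to 101.8 RPM at Rest and 83.1 to 99.4 RPM at EPS 3h (log2FC -0.02, FDR 0.841), and the groups overlapped.

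**Figure D2:**
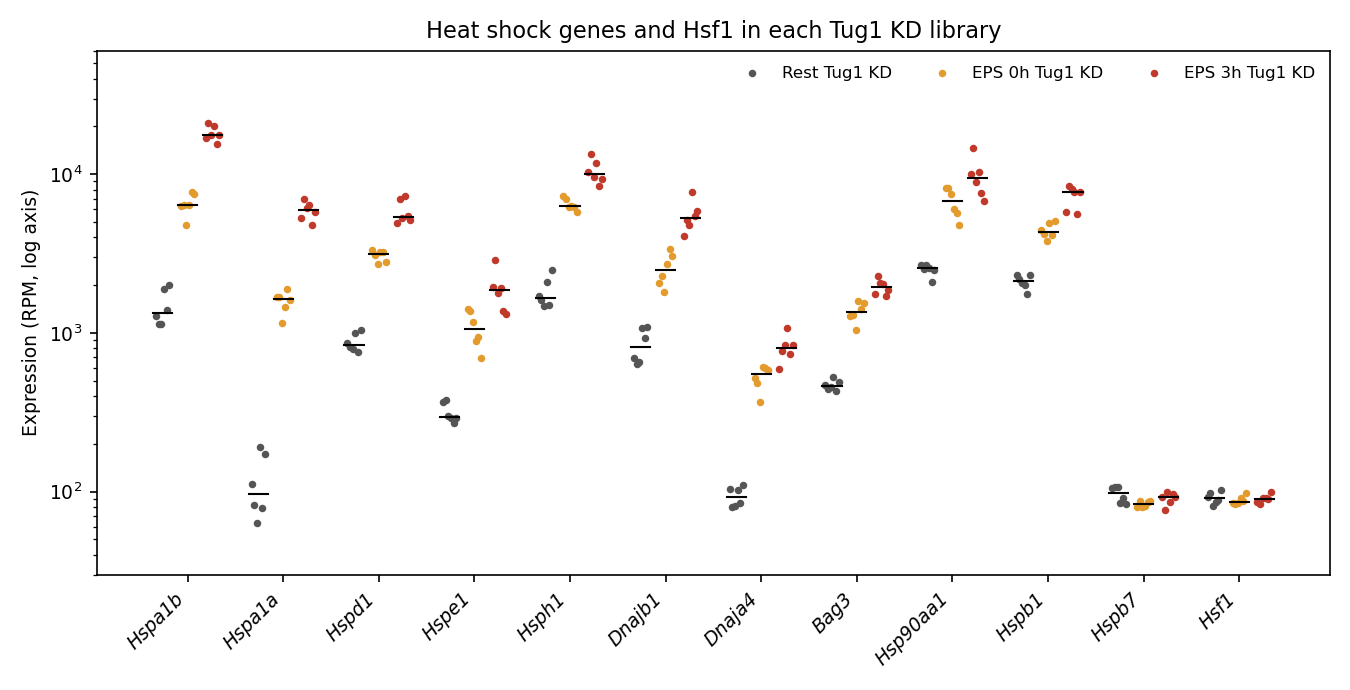
Expression (RPM, log axis) of 12 genes in each of the 6 Rest, 6 EPS 0h and 6 EPS 3h libraries of Tug1 KD myotubes, with a bar at each group's median. For Hspa1b the Rest libraries lie between 1138 and 2010 RPM and the EPS 3h libraries between 15434 and 21112 RPM, while for Hspb7 and Hsf1 the groups overlap.

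Letters of the heat shock element were more frequent upstream of the genes of this list that rose than upstream of genes in general. At least 1 match to 2 units was present in 9 of the 19 members that rose by more than 2-fold (47.4%), in 1 of the other 13 (7.69%, Fkbp4), and in 1524 of 13946 promoters read (10.9%). Over all 1516 promoters of genes called higher the share was 13.4%, and over 628 promoters of genes called lower 11.8%. The 3-unit form, GAANNTTCNNGAA or TTCNNGAANNTTC, was present in 0.402% of all promoters and, within the list, in the shared promoter of Hspd1 and Hspe1. Letters of other elements were read as well. TGANNNNGC was present in 47.4% of the 19 and 23.1% of the other 13, against 35.2% of all promoters. CANNTG was present in 47.4% and 46.2%, and TGACGTCA and TGANTCA each in none and 7.69%. A match describes letters in this window and not a bound site.

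Many immediate early factors were above Rest 3 h after EPS, but the families did not move as a whole. Of 12 tested AP-1 genes (13 listed), 7 rose and 2 fell (FDR under 0.05), with a median log2FC of 0.86. Atf3, a stress-induced partner of Jun, was at 117.3, 131.9 and 197.4 RPM at Rest and 424.4, 488.8 and 496.8 RPM at EPS 3h (log2FC 1.71, SE 0.102, FDR 5.64e-16). Jun had a log2FC of 1.51 (330.2 to 472.2 RPM and 951.9 to 1350 RPM), the small Maf protein Maff of 1.44, and Batf of 2.93 from a low level (0.153 to 0.517 RPM and 1.74 to 3.22 RPM). Fos and Fosb had a log2FC of 1.05 and 1.44. Against these, Junb fell from 313.9, 473.8 and 646.8 RPM to 61.4, 114.8 and 179.8 RPM (log2FC -2.11, SE 0.32, FDR 9.64e-07), with no overlap between the groups. Fosl2 did not pass the test (114.9 to 172.2 RPM and 121.6 to 168.6 RPM).

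Among 19 tested EGR, IER and other immediate early genes 10 were higher and 3 lower (median log2FC 0.30). Arc, an activity-regulated gene best known from neurons, rose from 14.6, 19.3 and 29.2 RPM to 109.6, 126.5 and 145.5 RPM (log2FC 2.58, SE 0.163), and Egr1 from 119.8 to 214.8 RPM to 323.1 to 504.6 RPM (log2FC 1.32). Ier2 had a log2FC of 0.85, and Zfp36, whose product destabilises cytokine mRNAs, fell (27.4 to 48.1 RPM and 15.9 to 23.5 RPM, log2FC -0.93). Of 14 NR4A and KLF genes 6 were higher and 4 lower, the latter near the 25.9% of all genes tested. The orphan nuclear receptors Nr4a3 (1.35 to 2.73 RPM and 7.99 to 18.6 RPM) and Nr4a1 (33.3 to 49 RPM and 91.9 to 152.2 RPM), which respond to exercise in muscle, had a log2FC of 2.54 and 1.51. Klf6 rose by a log2FC of 1.37, whereas Klf2, a factor that restrains inflammatory genes, fell from 19.7, 29.5 and 37.9 RPM to 4.64, 6.12 and 8.65 RPM (log2FC -2.17, FDR 8.11e-13). Genes that feed back on MAP kinases were raised in 8 of 16 cases and lowered in 1. They included the JNK and p38 phosphatases Dusp16 (35 to 53 RPM and 102.8 to 172.1 RPM, log2FC 1.62) and Dusp8 (log2FC 0.97) and the ERK inhibitor Spry2 (log2FC 1.13), with Dusp14 lower at a log2FC of -0.95.

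The tallest rises belonged to genes that were almost silent in resting Tug1 KD myotubes. Among the 12 named genes with the largest rise, for which pseudogenes and models with Gm or Rik names were passed over, Cyp11b2 (chr15:74720761-74728388), the aldosterone synthase of the adrenal cortex, had no count in any Rest library and 5.57, 10.5 and 11.4 RPM in the lowest, median and highest EPS 3h library, at least 67.4-fold higher than the floor of 3 counts per Rest library (0.147 RPM). Bmp7 (chr2:172709805-172782410), a bone morphogenetic protein, also had none and reached 4.71 to 10.2 RPM, at least 45.9-fold higher. Single Rest counts were seen for the homeobox gene Bsx, for Tspear and for the epithelial adhesion gene Epcam, and their ratios of EPS 3h to Rest were 809.0 (95% exact counting interval 144.7 to 31998), 797.4 (142.6 to 31541) and 738.3 (132.0 to 29206). Lrrc10, a leucine-rich repeat gene of heart muscle, had 3 Rest counts in all and a ratio of 234.5 (79.9 to 1140). These intervals and the floor cover counting error only. For all 6 genes the lowest EPS 3h library was at or above 3.45 RPM and the highest Rest library at or below 0.141 RPM.

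The others of the 12 had more Rest counts, though some still had few. Gml (chr15:74685297-74691246) rose from 0.135, 0.469 and 1.08 RPM to 58.5, 108.3 and 130.3 RPM (log2FC 7.64, SE 0.32, FDR 9.41e-20), and its neighbour Gml2 (chr15:74690798-74739341), which overlaps it, from at most 0.47 RPM to 30.1 to 65.6 RPM (log2FC 8.22). The gene next to them, Cyp11b1 (chr15:74699444-74713748), for the adrenal 11-beta-hydroxylase, lies within the span of Gml2 as does Cyp11b2, and had a log2FC of 6.28 (0 to 0.47 RPM and 11 to 18.3 RPM). Because whether counting used the strand is not given in the sources used here and several of these genes overlap or are paralogues, their reads cannot be told apart with certainty. Efr3b, a plasma membrane anchor for a phosphoinositide kinase, went from 0.103 to 0.226 RPM to 28.2 to 67.8 RPM (log2FC 7.94), the matrix gene Tnxb from at most 0.0894 RPM to 6.73 to 15.6 RPM (log2FC 7.78), the interleukin 36 receptor Il1rl2 from at most 0.0941 RPM to 5.67 to 14.9 RPM (log2FC 7.60), and Ubtfl1 from at most 0.103 RPM to 4.25 to 20 RPM (log2FC 7.85). Tnxb, Il1rl2 and Ubtfl1 each had 5 Rest counts in all, and every Rest library lay below the floor of 0.147 RPM. Their fitted log2FC are therefore uncertain in size.

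The genes called higher were on the whole weaker at Rest than the genes tested, but not all were almost silent. Their median was 1.03 RPM at Rest and 5.39 RPM at EPS 3h, against 24.2 RPM at Rest over all genes tested, and the 412 that rose more than 8-fold had a median of 0.188 RPM at Rest and 4.34 RPM at EPS 3h. Only 7 of them had no count in any Rest library. Genes with a Rest mean under 0.5 RPM numbered 503 among those tested and 486 of these were called higher, but such a gene could reach the expression filter, 1 RPM in at least 12 of 36 libraries, only through libraries of other groups, so that this share was set largely by the filter. Genes that rose more than 8-fold were also built differently, with a median of 4 exons and 19.7% with a single exon, against 8 exons and 5.96% over all genes tested, and 62.4% were protein coding against 89.9%. Since most of these genes were weak at Rest and the same filter chose them, their build describes the genes so chosen and was not tested as a trait of the response. The 503 genes with a Rest mean under 0.5 RPM had a median of 4 exons, 21.1% with a single exon and 57.7% protein coding. Genes called lower also had a median of 4 exons, with 8.76% of a single exon. A further 635 genes were called higher from a Rest mean of 0.5 to 5 RPM, and 419 from one of at least 5 RPM. The 419 had a median span of 52510 bases and a median of 35.2 RPM at Rest and 93.4 RPM at EPS 3h.

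Among the genes that passed the filter, those whose neighbour upstream was called higher were themselves called higher more often than the others. Of 615 tested genes whose nearest tested neighbour upstream on the same strand, within 50000 bases, was itself called higher, 142 (23.1%) were called higher. The share was 9.43% (536 of 5682) where that neighbour was not called higher. Both shares include genes with a Rest mean under 0.5 RPM, 56 of the 142 among them, for which the filter largely set the call. A gap of this direction was also seen where the neighbour lay farther away, with 14.2% (27 of 190) against 10.9% (176 of 1621) at 50000 to 100000 bases and 17.2% (70 of 408) against 9.67% (315 of 3256) at 100000 to 500000 bases. An upstream neighbour called higher within 50000 bases was found for 29 of 136 genes called higher from a Rest mean of at least 5 RPM (21.3%), against 615 of 6297 over all genes tested (9.77%). The latter share was not matched for Rest level, and it was 57 of 245 (23.3%) for genes with a Rest mean under 0.5 RPM. Around the 19 heat shock genes called higher, 36 of 104 tested genes within 100000 bases were called higher (34.6%, against 11.0% of all genes tested), 20 of them by more than 8-fold, and 2 were called lower (1.92%), with a median log2FC of 0.23. Of the 36, 13 had a Rest mean under 0.5 RPM, where the filter set the call. Among genes with a Rest mean of at least 5 RPM, 9 of 67 near these heat shock genes were called higher (13.4%), against 419 of 10533 over all genes tested (3.98%).

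Next to Hsph1 the overlapping antisense lncRNA Gm20005 (chr5:149559868-149572333, plus strand) rose from 0.322, 1.9 and 4.38 RPM to 118.4, 166.4 and 254.6 RPM (log2FC 6.14, SE 0.4). Part of it lies over the first bases of Hsph1, and reads of the overlap cannot be told apart with certainty. The processed pseudogene Gm5566, 24074 bases away, went from 0.047 to 0.376 RPM to 36.7 to 101.7 RPM (log2FC 8.78), and Wdr95, on the opposite strand, had a log2FC of 3.41. Beyond Hspa4l on the same strand lay Plk4, a kinase of centriole duplication, at 10.5, 12.5 and 18 RPM and then 89.6, 139.3 and 216.5 RPM (log2FC 3.43), and Abhd18 (log2FC 3.45), whereas Hspa4l itself had a log2FC of 1.28. Hspa1l, 532 bases from Hspa1a on the other strand and a close relative of it in sequence, had a log2FC of 3.74. On the strand opposite to Ahsa1, Ism2, Noxred1 and Tmed8 had a log2FC of 3.77, 3.57 and 1.99. Ism2 overlaps Ahsa1, and here too reads of the overlap cannot be told apart with certainty. Srrm3, 13134 bases before Hspb1, had a log2FC of 4.90, Gipc2 near Dnajb4 of 3.20, and Dixdc1 near Cryab of 2.62. Each of these neighbours, named after their values were seen, rose with no overlap between the groups, and several rose more than the heat shock gene beside them.

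The same arrangement was seen beyond chaperones that rose less or were outside the list, in pairs picked after their values were seen. Ccdc81 (chr7:89515356-89552837, minus strand) follows Hikeshi (chr7:89565676-89590431, minus strand), which carries HSP70 into the nucleus under heat stress. Hikeshi had a log2FC of 2.14 (31.9 to 38.7 RPM and 97.3 to 217.1 RPM) and Ccdc81 of 6.46 (0.107 to 0.775 RPM and 22.1 to 49.6 RPM). Tnn (chr1:159912599-159981150, minus strand), for the matrix protein tenascin N, follows Cacybp (chr1:160029173-160040459, minus strand), for an HSP90-related scaffold of a ubiquitin ligase, with a log2FC of 6.35 and 2.13. Gm48565 (chr9:40732265-40733969) and Bsx (chr9:40785423-40791353) follow Hspa8 (chr9:40711630-40731039) on the plus strand, and Gm48565 reached 4.86 to 31.8 RPM at EPS 3h from 3 Rest counts in all, a ratio of 605.8 (206.9 to 2941).

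**Figure D3:**
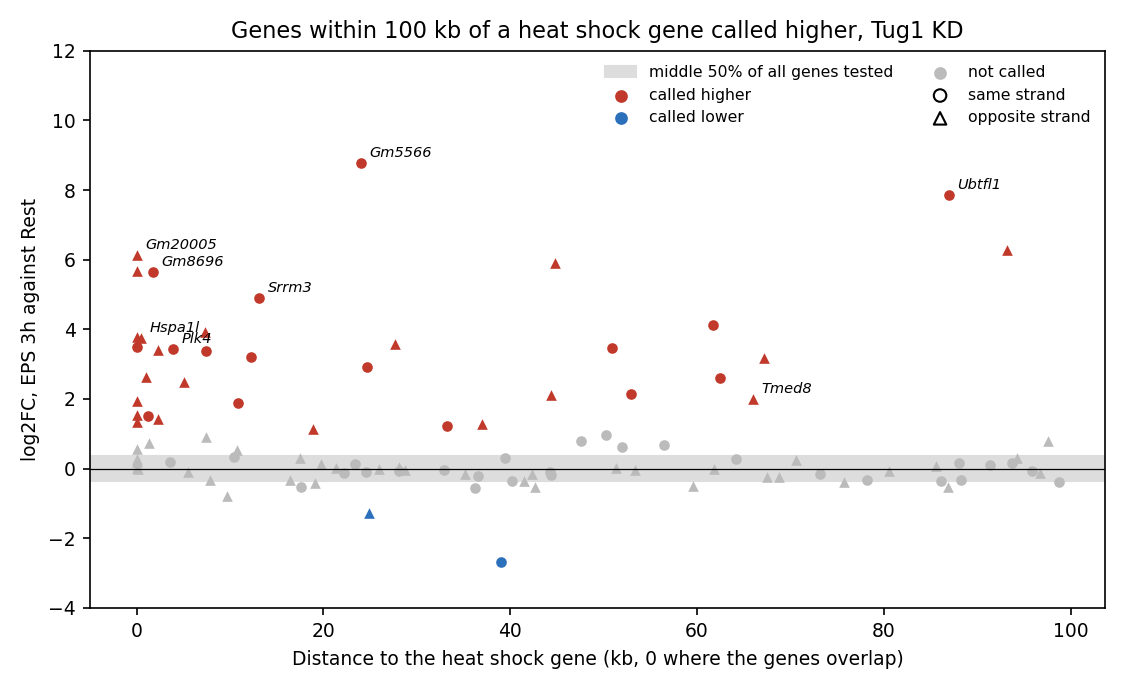
Each point is a tested gene within 100 kb of 1 of the 19 heat shock genes called higher in Tug1 KD myotubes, with its distance to that gene (kb) on the horizontal axis and its log2FC of EPS 3h against Rest on the vertical axis. Circles are genes on the same strand and triangles on the opposite strand, red marks the 36 called higher, blue the 2 called lower, and the grey band holds the middle 50% of all genes tested.

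Falls were smaller and started from higher levels. Genes called lower had a median of 8.84 RPM at Rest and 3.28 RPM at EPS 3h and a median span of 12142 bases, against 24360 bases over all genes tested. The largest fall among named genes was that of G0s2, an inhibitor of the triglyceride lipase ATGL, which went from 21, 32.8 and 33.7 RPM to 1.86, 2.61 and 4.29 RPM (log2FC -3.41, SE 0.249, FDR 7.65e-14). The neutrophil chemokines Cxcl5 (4.48, 7.33 and 21.8 RPM to 0.447, 0.685 and 2.13 RPM, log2FC -3.40) and Cxcl1 (18.6, 30.6 and 80.3 RPM to 2.12, 4.61 and 14.5 RPM, log2FC -2.72) were among the largest falls too, both with wide spread inside each group. Irf1, an interferon-induced transcription factor, fell from 54.7 to 77.7 RPM to 8.89 to 13.8 RPM (log2FC -2.47). The others of the 12 largest named falls were the phosphatase-like Hdhd3 (log2FC -3.05), the adaptor subunit Ap5s1 (-2.95), the bradykinin receptor Bdkrb1 (-2.83), the matrix genes Emilin1 (-2.77) and Tsku (-2.75), the FOXO target Depp1 (-2.65), Fam110a (-2.53) and the CDC42 effector Cdc42ep2 (-2.45). A gap between the groups was part of the rule by which these 12 were named.

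Most of the chemokine genes fell, and so did some of the inhibitors of NF-kB. Of 17 tested chemokines and cytokines (23 listed), 10 were lower and 1 higher, with a median log2FC of -0.73. Of 15 tested NF-kB genes (16 listed) 6 were lower and 4 higher, with a median of -0.13. Promoters of 3 of the genes that fell are shown because they carry the letters of the kB element, the sequence bound by NF-kB, here GGGNNTTTCC on either strand, in capitals: Cxcl1 (chr5:91038844-91039093, plus strand) with 2 matches between -79 and -52, Cxcl5 (chr5:90906987-90907236, plus strand) with 1 at -108 to -99, and Nfkbia (chr12:55539433-55539682, minus strand) with 1 at -29 to -20. The windows, their build and annotation are as for the heat shock promoters.
Cxcl1: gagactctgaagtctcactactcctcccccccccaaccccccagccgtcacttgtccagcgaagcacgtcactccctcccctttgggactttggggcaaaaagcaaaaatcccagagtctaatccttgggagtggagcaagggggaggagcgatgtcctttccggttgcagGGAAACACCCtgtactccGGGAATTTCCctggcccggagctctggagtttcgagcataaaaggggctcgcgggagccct
Cxcl5: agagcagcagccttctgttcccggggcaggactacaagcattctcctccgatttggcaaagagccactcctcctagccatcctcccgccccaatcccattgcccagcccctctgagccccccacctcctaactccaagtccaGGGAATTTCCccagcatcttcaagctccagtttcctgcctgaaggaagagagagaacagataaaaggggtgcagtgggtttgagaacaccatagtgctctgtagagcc
Nfkbia: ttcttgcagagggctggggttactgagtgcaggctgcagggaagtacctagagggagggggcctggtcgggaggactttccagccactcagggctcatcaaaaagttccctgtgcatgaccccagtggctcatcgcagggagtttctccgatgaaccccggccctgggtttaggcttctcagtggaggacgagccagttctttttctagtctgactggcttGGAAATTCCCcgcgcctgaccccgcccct

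These letters were present in 6 of the 16 members of both lists that were lower (37.5%), in 3 of the 16 that were not (18.8%) and in 212 of 13946 promoters (1.52%). Over all genes called lower the share was 1.75%, and over all genes called higher 2.24%. Letters of other elements were read in both lists too. Those of the AP-1 element, TGANTCA, went the other way (18.8% of the lower and 37.5% of the other members). So did 2 units of the heat shock element (12.5% and 18.8%). TGACGTCA (12.5% and 6.25%), TGANNNNGC (50% and 43.8%) and CANNTG (68.8% and 50%) were more frequent in the lower members. Nfkbia, the inhibitor that returns NF-kB to the cytosol and is itself an NF-kB target, fell from 69.1, 76.8 and 97.6 RPM to 13.3, 16.1 and 19.6 RPM (log2FC -2.27, SE 0.134, FDR 3.9e-16). Nfkbie and Bcl3, of the same family, had a log2FC of -1.85 and -1.98, and Tnip1, a brake on the pathway, of -0.61. In the other direction, Nfkbiz (33.5 to 98.8 RPM and 108.9 to 189.2 RPM, log2FC 1.23) and the deubiquitinase Cyld (log2FC 0.96) rose. The deubiquitinating inhibitor Tnfaip3 had a log2FC of -0.38 and did not pass the test (37.4 to 75.2 RPM and 26 to 49.6 RPM, FDR 0.056). Nor did the subunit Rela (78.5 to 111.7 RPM and 66.2 to 105.6 RPM, FDR 0.45).

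Of the monocyte attractants, Ccl2 was at 50.5, 60.8 and 100.2 RPM and then at 13.5, 15.5 and 42.3 RPM (log2FC -1.76, FDR 1.11e-05), with 1 EPS 3h library well above the other 5. Cx3cl1 (log2FC -1.19) and Csf1, the macrophage growth factor (276.4 to 596.4 RPM and 130.3 to 238.8 RPM, log2FC -1.08), fell too. The exception was Il11, which rose from 1.24 to 2.06 RPM to 2.46 to 4.86 RPM (log2FC 1.03). Il33 did not pass the test. Among 22 tested interferon response genes (27 listed) 8 were lower and 1 higher (median log2FC -0.31), with the peptide transporter Tap1 at a log2FC of -1.37 and Parp14 at -1.21, while B2m was at 248.3 to 350.6 RPM and 272.5 to 405.3 RPM (FDR 0.586).

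**Figure D4:**
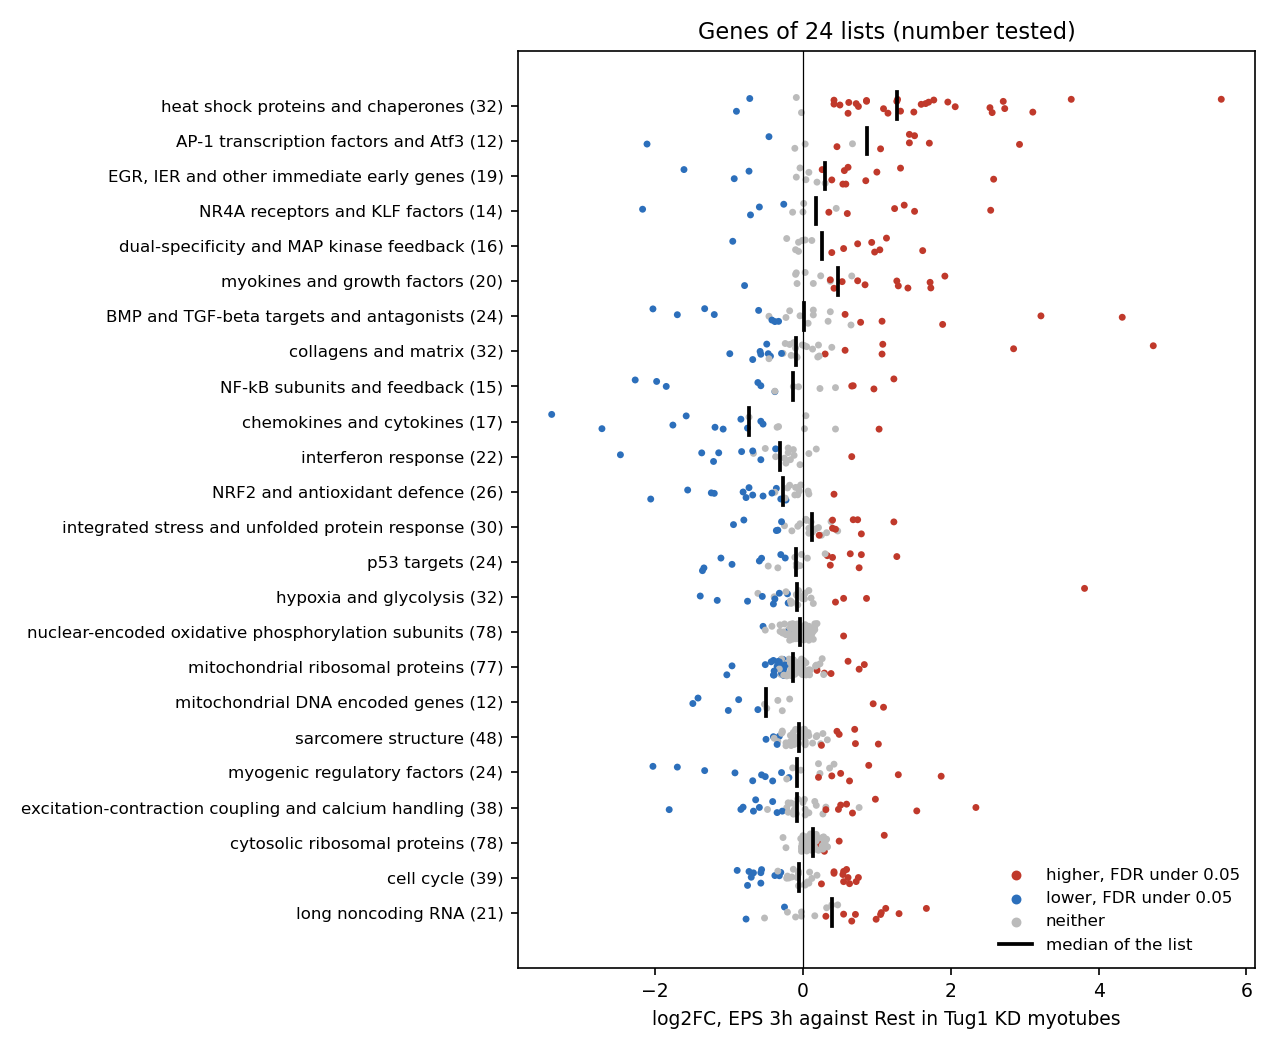
Each point is a tested gene of 1 of 24 lists, with its log2FC of EPS 3h against Rest in Tug1 KD myotubes on the horizontal axis. Red and blue mark genes higher and lower at an FDR under 0.05, grey the others, the black bar is the median of the list, and the number of genes tested stands in brackets. The heat shock list has the highest median (1.28) and the chemokines the lowest (-0.73).

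Unlike the chemokines, the myokines and growth factors were raised more often than lowered. Of 20 tested genes (22 listed) 11 were higher and 1 lower, with a median log2FC of 0.47. The neurotrophin Bdnf rose from 18.2, 23.5 and 31.2 RPM to 62.9, 96 and 130.9 RPM (log2FC 1.92, SE 0.169, FDR 7.98e-12). The activin subunit Inhba had a log2FC of 1.42 (44.4 to 72.6 RPM and 99.5 to 201.4 RPM) and the EGF receptor ligand Ereg of 1.73. Gdf15, a stress cytokine, had a log2FC of 1.27 with a range of 126.6 to 428.6 RPM at EPS 3h that touched the Rest range of 88.3 to 132.1 RPM. The abundant Sparc did not pass the test (FDR 0.368).

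In the BMP and TGF-beta pathway the ID target genes fell, while ligands and inhibitors moved in either direction. Of 24 tested genes (25 listed) 6 were higher and 8 lower, close to the 26.2% and 25.9% of all genes tested. Bmp6 rose from 0.271, 0.464 and 0.723 RPM to 5.21, 10.5 and 11.6 RPM (log2FC 4.32, SE 0.262), the decoy receptor Bambi from 0.207 to 0.591 RPM to 1.75 to 7.96 RPM (log2FC 3.22), and the inhibitory Smad7 from 27.6 to 56.1 RPM to 104.1 to 207.5 RPM (log2FC 1.89). The ID genes, which encode inhibitors of the myogenic bHLH factors and are transcribed under BMP, fell: Id1 from 34.5, 36.8 and 44.2 RPM to 5.86, 9.43 and 11.8 RPM (log2FC -2.03, FDR 5.82e-11), Id2 at a log2FC of -1.33 and Id3 at -1.70. Of the TGF-beta ligands, Tgfb3 fell from 154.1 to 209.9 RPM to 64.1 to 87.7 RPM (log2FC -1.20) and Tgfb2 rose from 48.9 to 57.1 RPM to 77.5 to 159.5 RPM (log2FC 1.07). The BMP antagonist Grem1 did not pass the test (109.5 to 250.4 RPM and 97.4 to 236.2 RPM, log2FC -0.23, FDR 0.475).

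Of 32 tested collagen and matrix genes (34 listed) 6 were higher and 8 lower (median log2FC -0.10). The basement membrane collagen Col15a1 rose from 0.587, 0.737 and 1.22 RPM to 13.2, 22.2 and 27.4 RPM (log2FC 4.74, SE 0.26), and the gelatinase Mmp9 from 0.517 to 2.46 RPM to 5.57 to 11.4 RPM (log2FC 2.85). The protease inhibitor Timp3 and the protease Adamts1, which degrades versican, had a log2FC of 1.07 and 1.08. The most abundant members did not pass the test, with Fn1 at 5248 to 11479 RPM and 4990 to 9944 RPM (FDR 0.745) and Col1a2 at 1031 to 1307 RPM and 988.5 to 1337 RPM (FDR 0.928).

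The contractile machinery showed few changes. Of 48 tested sarcomere genes (51 listed) 6 were higher and 4 lower (median log2FC -0.05). Skeletal actin Acta1 was at 3525, 3816 and 4236 RPM at Rest and 2881, 3764 and 4790 RPM at EPS 3h (FDR 0.921). Unc45b, the chaperone that folds myosin, had a log2FC of 1.02 (184.3 to 276.3 RPM and 268.4 to 676.6 RPM, FDR 0.000885) and the damage-responsive Z-disc protein Xirp1 of 0.49, with overlapping groups for both, and the adult myosin Myh1 fell by 0.32 on the log2 scale. Xirp1 and Myh1 passed the test in all 12 libraries but not in replicates 4 to 6 alone.

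Myogenic regulators were divided, with 7 of 24 higher and 10 lower, where 26.2% and 25.9% of all genes tested were higher and lower. Beside the ID genes above, the TEAD cofactor Vgll4 rose (63.1 to 83.1 RPM and 149.0 to 213.6 RPM, log2FC 1.29), as did Myf6, the regulatory factor of late differentiation, from a low level (0.181 to 0.878 RPM and 1.06 to 3.1 RPM, log2FC 1.87). The fusion protein Mymk was at 587.4 to 709.5 RPM and 423.7 to 757.0 RPM (FDR 0.869). Of 38 tested genes of excitation-contraction coupling and calcium handling (41 listed) 8 were higher and 9 lower. The small GTPases of the RGK family, which restrain calcium channels, parted, with Rem1 falling from 20, 23.9 and 25.2 RPM to 3.92, 6.72 and 9.31 RPM (log2FC -1.81, FDR 3.55e-12) and Rem2 rising from 0.0537 to 0.47 RPM to 0.602 to 1.99 RPM (log2FC 2.34). The store-operated channel Orai1 (log2FC -0.84) and the junctional protein Jph2 (483.2 to 584.5 RPM and 239.6 to 413.8 RPM, log2FC -0.67) fell, while the calcium store protein Casq2 (FDR 0.885) and the acetylcholine receptor subunit Chrna1 (FDR 0.387) did not pass the test.

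In the dystrophin complex 4 of 16 genes were higher and 3 lower, no more than among all genes tested (26.2% and 25.9%), with Dmd at a log2FC of 1.38 and the caveolar Cav3 at -0.99 (53.4 to 109.5 RPM and 30.7 to 55.1 RPM). Both muscle ubiquitin ligases of atrophy fell, Trim63 from 52.5, 67.1 and 77.6 RPM to 35.6, 41.4 and 48.5 RPM (log2FC -0.67) and Fbxo32 from 72.5, 80.4 and 92.7 RPM to 35, 51.7 and 68.3 RPM (log2FC -0.66), and Foxo1, a factor known to drive them, rose (40.3 to 63.5 RPM and 65 to 117.3 RPM, log2FC 0.88). Over the list 3 of 14 were higher and 4 lower. Of 32 autophagy and mitophagy genes 7 were higher and 6 lower.

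The nuclear-encoded subunits of the respiratory chain moved by small steps, whereas some transcripts of the organelle's own genome moved by more than 2-fold. Of 78 tested nuclear-encoded subunits of oxidative phosphorylation (79 listed) 1 was higher, 2 lower and 75 neither, with a median log2FC of -0.05. The ATP synthase subunit Atp5b was at 1302 to 1775 RPM and 1374 to 1805 RPM (FDR 0.856), and Ndufab1 was the 1 that rose (log2FC 0.55). Among 12 tested genes of mitochondrial DNA (15 listed) 5 were lower and 2 higher, with a median of -0.50 (-0.27 and -0.82 when replicates 1 to 3 and 4 to 6 were fitted alone). The complex I subunit mt-Nd1 fell from 998.6, 1496 and 2006 RPM to 299.4, 573.4 and 800.6 RPM (log2FC -1.42, SE 0.251, FDR 1.18e-05), mt-Nd5 had a log2FC of -1.01 and mt-Nd6 of -1.49, while mt-Co1 was at 5163 to 10323 RPM and 3958 to 8137 RPM (FDR 0.478). Both ribosomal RNA genes rose, mt-Rnr1 by a log2FC of 1.09 with overlapping groups (253.7 to 583.7 RPM and 520.5 to 1489 RPM). It did not pass the test in replicates 4 to 6 alone, where the log2FC was 0.79. As the libraries were made from poly-A selected RNA, the level of these RNAs also depends on their tails, and that part was not tested.

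Of 77 tested mitochondrial ribosomal proteins (78 listed) 20 were lower, a share close to that of all genes tested (25.9%), and 6 higher. The median log2FC was -0.14, with -0.25 in replicates 1 to 3 and 0.01 in replicates 4 to 6. Named members moved in either direction, with Mrpl41 at a log2FC of -1.03 (15.1 to 29 RPM and 9.32 to 13.3 RPM) and Mrps2 at 0.61. Among 18 regulators of mitochondrial biogenesis 6 were higher and 5 lower. The nuclear receptor Pparg rose from 13.7, 15.4 and 17.4 RPM to 43.2, 48.1 and 54.9 RPM (log2FC 1.65, SE 0.119, FDR 5.72e-14) and Gabpa, a subunit of nuclear respiratory factor 2, by a log2FC of 1.00. The mitochondrial RNA polymerase Polrmt fell from 41.8 to 49.2 RPM to 24 to 30.4 RPM (log2FC -0.78), and the DNA polymerase Polg had a log2FC of -0.48. For fusion and fission 4 of 13 genes were higher and 3 lower, with Mtfr2 at 1.18 to 2.12 RPM and then 7.71 to 16.8 RPM (log2FC 2.87) and the DRP1 receptor Mief2 at a log2FC of -0.79. Around the calcium uniporter 1 of 12 was higher and 2 lower. The sodium-calcium exchanger of the inner membrane Slc8b1 fell from 81.1, 94.2 and 113.3 RPM to 34.3, 42.7 and 51 RPM (log2FC -1.15), Letm1 had a log2FC of -0.53 and the regulator Micu3 of 0.86.

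Part of the antioxidant genes fell. Of 26 antioxidant genes under NRF2, 13 were lower and 1 higher, with a median log2FC of -0.27 (-0.42 for replicates 1 to 3 alone and -0.13 for replicates 4 to 6). Nqo1, the standard NRF2 target, fell from 37.3, 43.1 and 48.9 RPM to 7.01, 9.09 and 15.7 RPM (log2FC -2.06, SE 0.184, FDR 1.06e-11). The glutathione genes Gsta4 (95 to 103.6 RPM and 17.6 to 55.5 RPM, log2FC -1.56) and Gsr (log2FC -0.73) and the NADPH source G6pdx (51.6 to 70.7 RPM and 18.2 to 38.6 RPM, log2FC -1.20) fell as well, as did Keap1, the adaptor that holds NRF2 down (log2FC -0.77). Hmox1 did not pass the test (1719 to 3089 RPM and 1077 to 3455 RPM, FDR 0.853). Of 30 tested genes of the integrated stress and unfolded protein responses (31 listed) 8 were higher and 5 lower. Ppp1r15a, which restores translation, had a log2FC of 1.23 (132.3 to 174.2 RPM and 240.7 to 432.6 RPM), the asparagine synthetase Asns of 0.74 and the lectin chaperone Canx of 0.40, while Atf4 itself did not pass the test (FDR 0.407). The median of this list was 0.12 and turned to -0.05 when scaled by library size alone. Of 24 p53 target genes 7 were higher and 8 lower. Gadd45a had a log2FC of -1.11, the AKT inhibitor Phlda3 of -1.36 and the death gene Bbc3 of -1.34, whereas Gdf15, given above, rose (log2FC 1.27).

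Genes of fatty acid use were lowered more often than raised, and those of glucose use and glycogen were divided. Of 32 tested hypoxia and glycolysis genes (34 listed) 9 were lower, a share near the 25.9% of all genes tested, and 4 higher. The glucose transporter Slc2a1 fell from 86.3, 92.1 and 113.4 RPM to 33.3, 41.4 and 52.8 RPM (log2FC -1.16) and the lactate exporter Slc16a3 from 14.9 to 21.6 RPM to 3.28 to 9.95 RPM (log2FC -1.39), while Gapdh was at 1653 to 2430 RPM and 1678 to 2364 RPM (FDR 0.936). Epas1, for the hypoxia-inducible factor HIF-2alpha, went the other way, from 0.47, 0.765 and 1.25 RPM to 5.47, 10.8 and 16 RPM (log2FC 3.81, SE 0.358). In glycogen metabolism the targeting subunit Ppp1r3c (4.33 to 4.92 RPM and 9.61 to 33.5 RPM, log2FC 2.11) and the phosphorylase kinase subunit Phkg1 (0.47 to 0.968 RPM and 1.68 to 3.76 RPM, log2FC 1.94) rose, 3 of 12 tested genes being higher and 2 lower. Of 20 tested genes of fatty acid use and lipid droplets (25 listed) 8 were lower and 1 higher. Beside G0s2 they included Pdk4, the kinase that shuts pyruvate dehydrogenase (33.9 to 48.2 RPM and 17.4 to 27.2 RPM, log2FC -0.90), and Cpt1a, the carnitine transferase of the outer membrane (log2FC -0.97), and the droplet coat Plin2 was the 1 that rose (220.0 to 247.5 RPM and 303.2 to 467.2 RPM, log2FC 0.71). Sterol and fatty acid synthesis had 4 of 31 higher and 8 lower, with Sqle at a log2FC of -0.64 and Srebf1 at -0.76.

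Of 17 tested clock genes (19 listed) 8 were higher and 5 lower. Clock had a log2FC of 1.02 (58.7 to 79.3 RPM and 106.3 to 183.9 RPM), and the output genes Bhlhe40 (228.7 to 393.1 RPM and 91.8 to 168.4 RPM, log2FC -1.14) and Dbp (log2FC -1.10) and the repressor Cry2 (log2FC -0.67) fell. Of 21 tested lncRNAs (27 listed) 10 were higher and 2 lower, with a median of 0.39. Pvt1, the neighbour of Myc, rose from 9.51, 10.4 and 12.8 RPM to 21.8, 36.9 and 40.5 RPM (log2FC 1.67) and Kcnq1ot1 by a log2FC of 1.30, and the paraspeckle RNA Neat1 had a log2FC of -0.77. Malat1 ranged from 552.8 to 2006 RPM at Rest and 1497 to 2446 RPM at EPS 3h (log2FC 0.47, FDR 0.055), and H19 did not pass the test (FDR 0.895). Of 10 tested replication-dependent histones (20 listed) 3 were higher and 2 lower. H2ac8 rose from 0.107 to 0.866 RPM to 5.82 to 33.3 RPM (log2FC 5.24) and H2bc8 by a log2FC of 3.14, although members of this family are close in sequence and reads may have been shared. The cell cycle list had 11 of 39 higher and 11 lower.

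Ribosomal proteins and proteasome subunits held few genes that passed the test. Of 78 tested cytosolic ribosomal proteins (79 listed) 4 rose and none fell, and their median log2FC of 0.13 turned to -0.03 when scaled by library size alone, as did that of 22 CLK kinases and SR splicing factors. In the latter list 8 were higher, among them the splicing factor Tra2b (105.9 to 132.3 RPM and 231.7 to 302.0 RPM, log2FC 1.09), and 4 lower, among them Srsf5 (log2FC -0.73). Of 38 proteasome subunits 4 were higher and 1 lower (median log2FC 0.08, and -0.09 by library size alone). Of 5 tested metallothioneins and zinc transporters (7 listed) 2 were higher and 1 lower. Of 8 tested subunits and regulators of the sodium-potassium ATPase (9 listed) none was higher and 3 were lower.

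Part of this response was present when the stimulation ended and part arose during the recovery. EPS 0h was measured in 6 further Tug1 KD libraries taken at the end of the 3 h of EPS, and it shares the Rest libraries with the comparison above. Of the 1540 genes called higher at EPS 3h, 1012 were also called higher at EPS 0h against Rest, 527 were not called and 1 was lower. Of the 629 called lower, 265 were also called lower at EPS 0h and 364 were not called. Between EPS 0h and EPS 3h themselves, 531 genes (3.79%) were higher and 45 (0.322%) lower at EPS 3h by the same rule. Of the former 471 were among the 1540, and of the latter 24 were among the 629. A gene not called at EPS 0h had thus not always changed by this rule during the recovery. Of 1141 genes called higher at EPS 0h, 34 had an FDR over 0.05 against Rest at EPS 3h, and of 350 called lower, 32.

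Named genes showed both courses. All 28 heat shock genes that were higher at EPS 3h were already higher than Rest at EPS 0h (FDR under 0.05). From EPS 0h to EPS 3h 17 of them rose further and 11 did not pass the test, and the median step over the list was 0.35. The largest further steps were seen in genes with a log2FC against Rest of 3.76 (EPS 0h) and then 5.66 (EPS 3h) for Hspa1a, 2.14 and 3.63 for Hspa1b, 1.81 and 2.73 for Hspd1, and 1.59 and 2.71 for Dnajb1. The step from EPS 0h to EPS 3h in these was 1.90, 1.48, 0.93 and 1.11. Others were early and level, such as Bdnf at 1.92 and 1.92 and H2ac8 at 5.20 and 5.24. A further set was mostly late. Epas1 had 0.61 and 3.81 in that order, Ereg 0.30 and 1.73, Mmp9 0.76 and 2.85, Kdr 1.29 and 4.48, Tnn 1.71 and 6.35, Jun 0.57 and 1.51, and Egr1 0.27 and 1.32. The fall was mostly late in G0s2 (-0.73 and -3.41) and was divided between both periods in Irf1 (-1.25 and -2.47), while Nqo1 (-2.41 and -2.06), Gsta4 (-1.60 and -1.56) and Junb (-1.93 and -2.11) had already fallen when EPS ended. Ppp1r3c was higher at EPS 0h than at EPS 3h (2.90 and 2.11).

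In control LNA myotubes the same comparison gave 1346 genes called higher and 661 lower, and the direct test of the difference between the responses found 1 gene of 13995 (0.00715%) at an FDR under 0.05, with edgeR, DESeq2 and limma-voom each calling 1, and 430 genes at an unadjusted p under 0.05. The gene called by edgeR was Fut2 (chr7:45298015-45315818), a fucosyltransferase of blood group antigens, named after this test was seen. Fut2 kept its call under DESeq2 and limma-voom, so it was also the gene that each of them called. In Tug1 KD myotubes Fut2 rose from 0.322, 0.644 and 0.813 RPM to 2.63, 3.29 and 4.16 RPM (log2FC 2.53). In control myotubes it was at 1.51, 1.82 and 2.72 RPM at Rest and 1.54, 2.53 and 4.1 RPM at EPS 3h (log2FC 0.44, FDR 0.0825). The difference between the responses was 2.09 on the log2 scale (SE 0.32, FDR 0.00204). At Rest the knockdown itself lowered Fut2 against control (log2FC -1.72), and at EPS 3h the difference did not pass the test (log2FC 0.37, FDR 0.295).

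No other gene passed the test of the difference in this fit, whereas 8 genes did when the replicate number entered as a block, and each set of 3 replicates alone called 1 gene that was not Fut2. Over the genes called higher in Tug1 KD, the median log2FC was 1.92 in Tug1 KD and 1.68 in control, with a median difference of 0.236, and over those called lower -1.28 and -1.24, with a median difference of -0.088. Since these genes were picked by their Tug1 KD values, the choice itself moves both Tug1 KD medians away from 0. The median SE of the difference was 0.205, against 0.146 for the response in Tug1 KD alone. The heat shock list had a median log2FC of 1.28 in Tug1 KD and 1.22 in control, and Hspa1b 3.63 and 3.22, Arc 2.58 and 1.83, Epas1 3.81 and 3.50, G0s2 -3.41 and -3.19, and Nfkbia -2.27 and -2.03. Tug1 rose by 1.06 in Tug1 KD and 0.75 in control, with a difference of 0.32 (SE 0.239) that did not pass the test.

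**Figure D5:**
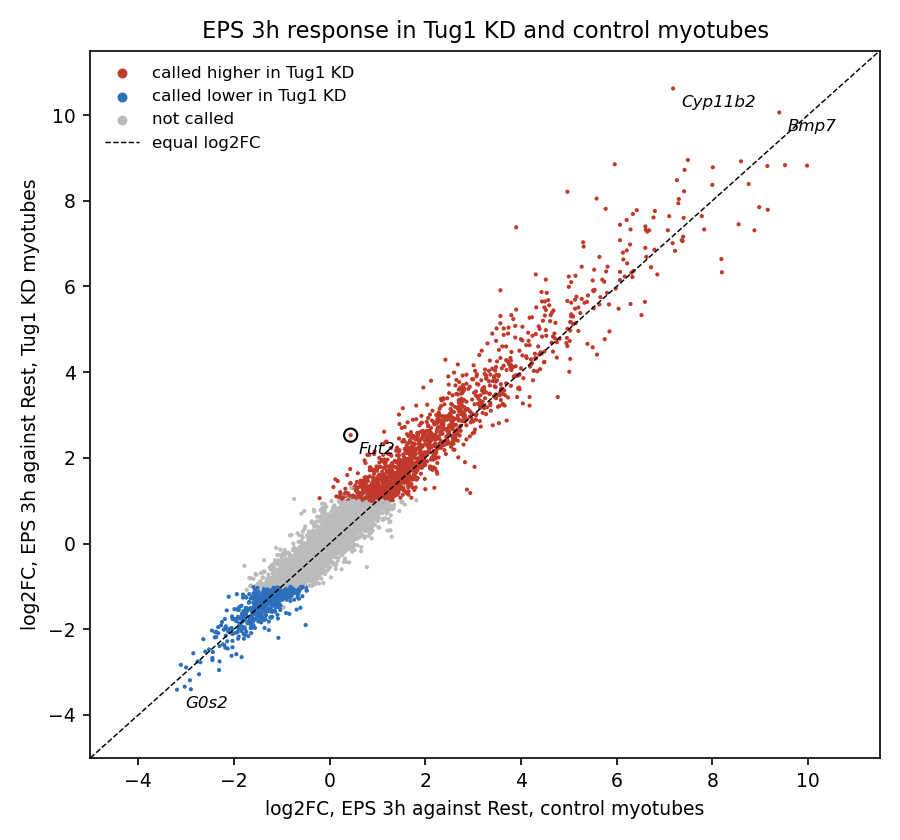
Each point is 1 of 13995 genes, with the log2FC of EPS 3h against Rest in control myotubes on the horizontal axis and in Tug1 KD myotubes on the vertical axis. Red and blue mark genes called higher and lower in Tug1 KD, the dashed line is equal response, and the circled gene Fut2 (0.44 in control, 2.53 in Tug1 KD) is the 1 gene whose responses differed at an FDR under 0.05.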

How the data were processed

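RNA-seq libraries were made from poly-A selected RNA of C2C12 myotubes, 6 wells per group, with a strand-marking kit. The authors deposited raw counts, whole numbers of reads per gene without normalisation, for 55416 genes, of which 1492 rows carried no gene name and held 0.0327% of the counts. The submitters' processing notes name fastp 0.14.1, FastQC 0.11.7, STAR 2.5 and the mouse build GRCm39. Whether counting used the strand is not given in the sources used here. Groups and replicate numbers were read from the library titles. No pair of libraries within a group agreed within counting error, so none was counted once for 2.

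Counts were tested in R 4.3.3 with edgeR 4.0.16 (TMM scaling, quasi-likelihood test with robust dispersion, Benjamini-Hochberg FDR over 13995 genes that reached 1 RPM in 12 or more of the 36 libraries), fitted to all 6 groups. A gene was called at an FDR under 0.01 and a log2FC beyond 1, and list members and the difference between Tug1 KD and control at an FDR under 0.05. The count of 3 reads per library served as the floor for genes with none, and a ratio against 1 to 3 counts in all has a 95% exact binomial interval. The steps were tested on simulated counts. Alternatives were DESeq2 1.42.0, limma-voom (limma 3.58.1), glmTreat (a test against a 2-fold change), other scalings and filters, a fit to the groups compared only, blocks for the replicate number or replicate set, each replicate set alone, and each library left out. Same-numbered wells of EPS 0h and EPS 3h correlated at 0.188 to 0.754. For 4 of the 6 wells another number correlated more, so the data do not show that the replicate numbers pair the wells.

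Positions and promoters came from GENCODE M39 and the GRCm39 genome, which placed 13946 of the genes tested (99.6%). Named genes were the 12 largest rises and 12 largest falls whose higher group averaged 5 RPM or more and whose groups did not overlap, leaving out pseudogenes and Gm or Rik models, and from each list the 4 members with the smallest FDR and the 2 most abundant that did not pass it. Junb, Fos, Fosb, other list members and the genes beside chaperones were added after their values were seen. The members and lists were chosen with earlier results of these data known. Some members that the rule names are not reported here. Spike-in reads were not used here.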

Additional observations from a re-analysis of the deposited data

Results flagged for a closer look

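In groups of 6 libraries a value was singled out where the gap from the lowest or highest library to the next, divided by the range, exceeded Dixon's 95% critical value. Of 418 groups examined (2 for each named gene and for Tug1), 17 had such a library, and chance gives about 1 in 20. Library Rest replicate 6 accounted for 6 of them, being the highest for Plk2 (498.3 RPM, next 391.6), Hsp90ab1 (5725, next 4873), Serpinh1 (1780, next 1589) and Bsx (0.0447, the others 0) and the lowest for G0s2 (21, next 30.2) and B2m (248.3, next 312.4). Library EPS 3h replicate 5 was the lowest for Cyp11b2 (5.57 RPM, next 9.95), Bmp6 (5.21, next 9.61) and Mmp9 (5.57, next 9.75). Library EPS 3h replicate 3 was the highest for Ccl2 (42.3 RPM, next 17), and EPS 3h replicate 1 for Parp14 (4.82, next 2.81) and Chrna1 (1743, next 1551). At Rest, replicate 5 was the lowest for Hsp90aa1 (2088 RPM, next 2500) and replicate 1 for Fam110a (11.6, next 13.7). A single library held the few Rest reads of Tspear (replicate 1, 0.0517 RPM), Epcam (replicate 5, 0.0451 RPM) and Lrrc10 (replicate 4, 0.141 RPM).

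Fut2 was singled out because its response to EPS 3h differed between Tug1 KD and control myotubes in the direct test, by 2.09 on the log2 scale.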

How the results depend on the processing

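Over 208 named genes, 4754 of 4796 values under the alternatives kept their direction and side of the threshold and none turned. Of the counts, the 1540 genes higher became 2683 with a filter of 10 counts in 6 libraries, 4334 with no filter and 913 with glmTreat, and the 629 lower became 1163 with no filter and 172 with glmTreat. The 576 genes that differed between EPS 0h and EPS 3h became 1145 with 10 counts in 6 libraries and 1400 with no filter, and the 28 heat shock genes higher became 15 with glmTreat. Filters change how many weakly expressed genes are tested, and glmTreat asks for more than 2-fold. Leaving out each library in turn gave 1437 to 1600 genes higher, 609 to 660 lower, 519 to 622 between EPS 0h and EPS 3h, 1 for the difference from control, 28 heat shock genes and a log2FC of 0.92 to 1.15 for Tug1. Replicates 1 to 3 alone gave 1800 and 684, and replicates 4 to 6 alone 1236 and 591. In each set alone 1 gene differed from control, but it was not Fut2, whose difference there was 2.29 and 1.87 and did not pass. The numbers share no stated source between Rest and EPS 3h, and same-numbered wells correlated at 0.077 to 0.412. With a replicate block 1528 genes were higher and 657 lower, of which 2134 were among the 2169 genes called without it, 630 differed between EPS 0h and EPS 3h, and the difference from control was called for 8 genes instead of 1. The cause was not tested. glmTreat was fitted to all genes tested, but its values are not among the 4796 above or those given for Tug1. At these depths a gene below about 0.147 RPM rests on 3 counts or fewer per library.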
